A study of Bos taurus with 7 samples.

Results

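The SMAD and ID transcription regulators carry signals of the TGF-beta family into the nucleus, and their transcripts were followed in bovine primary and secondary follicles. The 10 members were chosen by gene symbol: *SMAD1* and *SMAD5* (BMP-type), *SMAD2* and *SMAD3* (activin-type), *SMAD4* (common), *SMAD6* and *SMAD7* (inhibitory), and *ID1*, *ID2* and *ID3*. They were 10 of the 23704 genes to which RefSeq transcripts could be matched, and the values of each gene are the sums over its transcripts. The 7 libraries were bulk RNA-seq of secondary follicles (SF, 3 libraries) and primary follicles (PF, 4 libraries) of *Bos taurus*. In SF a few layers of granulosa cells surround the oocyte, and in PF a complete layer of cuboidal granulosa cells does. Ovaries came from young Holstein Friesian dairy cows at an abattoir, and follicles of both stages were isolated mechanically, separated by strainer mesh, sorted by morphology and left for a short recovery in medium with insulin, transferrin, selenium and FSH before lysis. Whole follicles were pooled for each library, which therefore mixes oocyte and granulosa RNA, and no group carried a genetic change or a drug.

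In this pathway, dimeric ligands such as GDF9, BMP15, AMH and the activins bind serine/threonine kinase receptors, which phosphorylate the receptor-regulated SMADs. These join SMAD4 and enter the nucleus, while SMAD6 and SMAD7 block the receptors or mark them for breakdown. ID proteins lack a DNA-binding region and hold E proteins and other helix-loop-helix factors away from DNA, and *ID1*, *ID2* and *ID3* are classical targets of BMP signaling in many cell types.

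Each library held between 18788105 and 23764615 estimated counts, with 12188 to 13034 genes at 1 TPM or more (TPM, Salmon's measure of abundance per transcript, takes account of transcript length and sums to a fixed total). PF replicate 4 stood apart from its group, and the study left it out of its tests. Its 11 measured stromal fibroblast markers summed to 6246 TPM, against 343 to 748 TPM in SF and 467 to 1219 TPM in PF replicates 1 to 3. Not all of them were raised there. *COL1A2* had 2762 TPM, against 8.28, 4.27 and 15.7 TPM in PF replicates 1 to 3, but *DCN* had 168 TPM, against 390, 398 and 573 TPM. All comparisons below therefore use n = 3 libraries per stage, with the value of PF replicate 4 beside them. The 18 oocyte markers summed to 724 to 2434 TPM in SF, against 3285 to 6421 TPM in PF replicates 1 to 3. PF replicate 4 had 1613 TPM, within the SF range. None of the 18 was at 0 in any of these libraries. The 18 granulosa markers summed to 8003 to 8305 TPM in SF, 2292 to 3391 TPM in PF replicates 1 to 3 and 2840 TPM in PF replicate 4. *NR5A2* was at 0 in SF replicate 1 and PF replicates 1 to 3, and *INHBB* in SF replicate 2 and PF replicate 3. Theca markers summed to 299 to 412 TPM in SF and 166 to 252 TPM in PF replicates 1 to 3. In the same order, smooth muscle and pericyte markers summed to 220.3 to 262 and 72.4 to 152 TPM. Endothelial markers summed to 21.0 to 102 and 34.7 to 48.8 TPM, immune markers to 10.1 to 295 and 51.2 to 93.7 TPM. Erythroid markers summed to 12.4 to 24.7 and 2.10 to 18.0 TPM. PF replicate 4 had 1515, 1044, 38.7, 12.8 and 14.2 TPM for these lists in turn. Single genes made up large parts of several sums. *DCN* gave 390 of the 467 TPM of the stromal fibroblast markers in PF replicate 1. *MYH11* gave 163 of the 254 TPM of the smooth muscle and pericyte markers in SF replicate 1. The immune and erythroid sums rested mainly on single genes too. *CD74* gave 262 of the 295 TPM in SF replicate 1, and *CSF1R* 89.2, 62.0 and 31.5 TPM in PF, while *PTPRC* and *CD3E* stayed under 1 TPM. Nearly all of the erythroid sum was *HBA*, with *HBB* and *ALAS2* at 0 in every library. The oocyte and granulosa sums of SF and PF replicates 1 to 3 thus moved with the stage, but not every gene did. Of the granulosa sums, *GSTA1* gave 4864, 5141 and 3935 TPM in SF and 1604, 913 and 1562 TPM in PF. *WT1* was lower in SF (3.09, 3.57 and 0.581 TPM) than in PF (8.11, 9.54 and 7.42 TPM). Other genes of these lists overlapped between the stages, among them *ZP2*, *ZP4*, *NLRP5*, *FOXL2* and *KITLG*. The part of both lists in the results below was not tested. In such bulk samples fewer cells of a type and less RNA per cell cannot be told apart.

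The levels of the members spanned a wide range. *ID1*, *ID2* and *ID3* had the highest levels, with means of 529 ± 334, 585 ± 481 and 570.5 ± 63.7 TPM in SF and 309.6 ± 406, 296 ± 446 and 382 ± 227 TPM in PF (SD, n = 3 each). Their order could not be told from the stage means, since the spread of each covered the means of the others in both stages. Within libraries the order differed. *ID3* was the highest and *ID2* the lowest of them in SF replicate 1 and PF replicates 1 and 2. *ID2* was the highest in SF replicates 2 and 3 and in PF replicates 3 and 4. *SMAD2* was the most abundant SMAD (193 ± 24.7 TPM in SF and 139 ± 32.9 TPM in PF), and every SF and PF library of the comparison had more *SMAD2* than *SMAD4*. In SF, *SMAD4* (92.1 ± 21.6 TPM) lay above *SMAD3* (36.7 ± 14.9 TPM), while in PF they were at 39.4 ± 5.72 and 37.1 ± 8.81 TPM, a gap within their spread. *SMAD5*, *SMAD6* and *SMAD1* followed with means between 5.03 and 19.2 TPM, and *SMAD7* was close to the detection floor in most libraries.

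**Figure D1:**
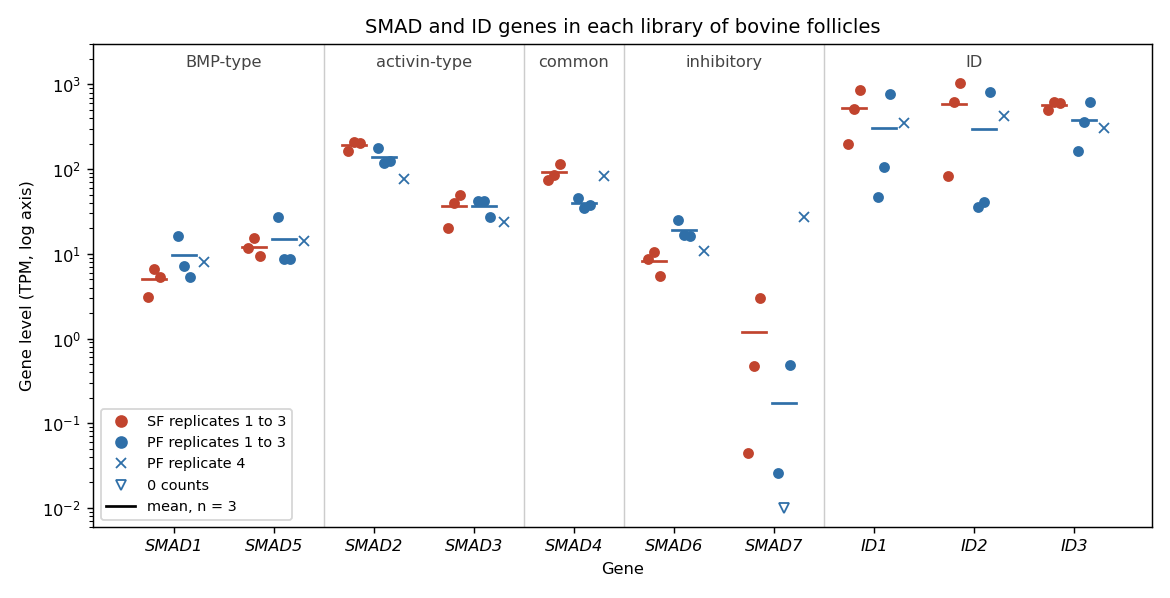
Level of each SMAD and ID gene in each library (y axis, TPM on a log scale), with genes along the x axis grouped by class. Red circles are SF libraries, blue circles PF replicates 1 to 3, the blue cross PF replicate 4, the open triangle a library with 0 counts drawn at the bottom of the axis, and horizontal lines the means over n = 3. The SF and PF circles separate for *SMAD4* (SF higher) and *SMAD6* (SF lower) and overlap for the other 8 genes.

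The first question was which members differed between the stages. In the SF versus PF comparison, *SMAD4* and *SMAD2* were upregulated in SF, *SMAD6* was downregulated, and 7 of the 10 members did not pass (Wald test of DESeq2, Benjamini-Hochberg adjusted p below 0.05). Across all 15104 genes that received an adjusted p, 2871 (19.0%) passed, 1225 (8.11%) higher and 1646 (10.9%) lower in SF. The 3 of 10 members called are thus set against a background of 19.0%. The TPM ranges of the stages did not overlap for 2 of the 10 members, against 4932 genes (32.7%) of all those tested. The median log2 fold change was 0.68 over the members and 0.02 over all genes tested. The quasi-likelihood test of edgeR called no member and 0 of all genes, although 3844 genes, among them *SMAD4*, *SMAD6* and *SMAD2*, had an unadjusted edgeR p below 0.05. The smallest edgeR adjusted p over all genes was 0.052.

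**Figure D2:**
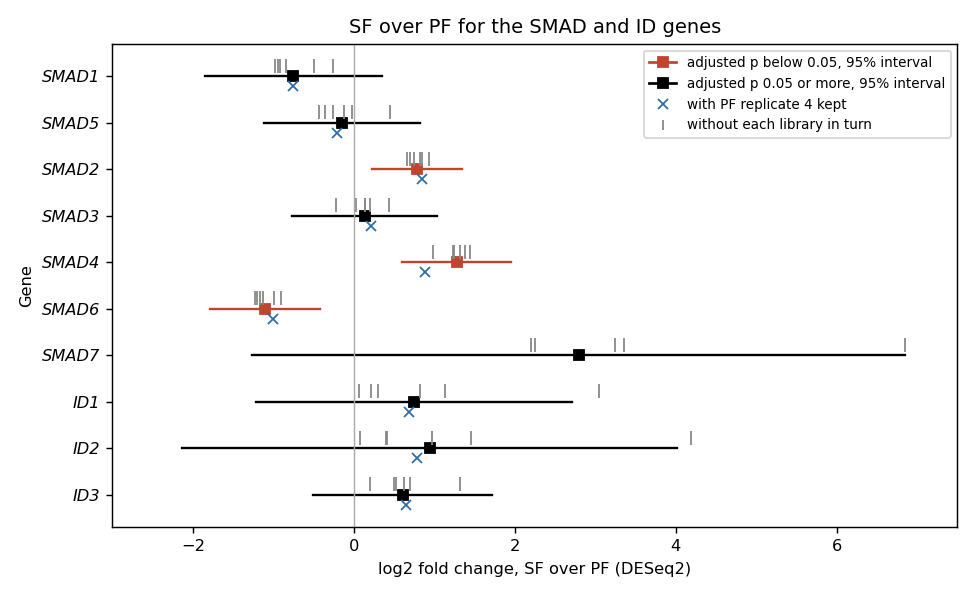
Log2 fold change of SF over PF for each member (x axis) from DESeq2, with squares for the estimate and bars for its 95% interval. Red marks a DESeq2 adjusted p below 0.05, blue crosses the estimate with PF replicate 4 kept, and grey ticks the estimates without each library in turn. *SMAD7* had no adjusted p with PF replicate 4 kept or without SF replicate 3, and its estimates from those fits are not drawn. *SMAD2*, *SMAD4* and *SMAD6* keep their side of 0 throughout, while the ticks of *SMAD5* and *SMAD3* lie on both sides.

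*SMAD4* encodes the common partner that receptor-regulated SMADs of both branches need. It had 74.8, 85.3 and 116 TPM in SF, against 45.8, 35.0 and 37.2 TPM in PF replicates 1 to 3 and 83.1 TPM in PF replicate 4. Every SF library lay above PF replicates 1 to 3, but PF replicate 4 fell inside the SF range. The log2 fold change was 1.28 ± 0.35 (SE, 95% interval 0.60 to 1.95), a 2.42-fold higher level in SF (DESeq2 adjusted p = 0.0031). The call held without each library in turn (DESeq2 adjusted p = 0.00038 to 0.038) and with the library number, described below, as a covariate (1.13 ± 0.32, DESeq2 adjusted p = 0.0045). Keeping PF replicate 4 ended the call (0.89, DESeq2 adjusted p = 0.25), as did edgeR (adjusted p = 0.062) and limma (adjusted p = 0.052 to 0.10), within a range of 0.00038 to 0.25 over all alternatives.

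RefSeq holds 4 *SMAD4* transcripts, and the rise was seen in the most abundant of them. The curated mRNA of 2660 bases had 31.5, 36.1 and 48.0 TPM in SF, against 18.4, 15.5 and 16.0 TPM in PF replicates 1 to 3 and 37.9 TPM in PF replicate 4. Its share of the *SMAD4* TPM stayed between 40.2% and 45.6% in all 7 libraries. A predicted non-coding transcript of 2226 bases held 28.5% to 42.3%, and a predicted mRNA of 8484 bases 14.3% to 27.4%, so the transcripts kept much the same proportions at both stages. With curated transcripts alone the log2 fold change was 1.34 (DESeq2 adjusted p = 0.0035).

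**Figure D3:**
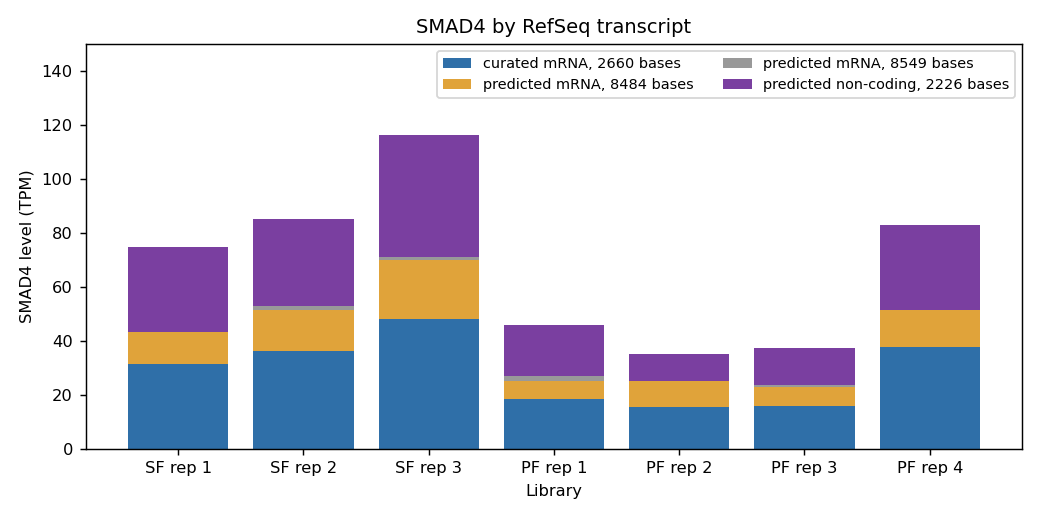
*SMAD4* level in each library (y axis, TPM) stacked by its 4 RefSeq transcripts, with libraries along the x axis. The bars of the SF libraries reach 74.8 to 116 TPM and those of PF replicates 1 to 3 35.0 to 45.8 TPM, PF replicate 4 reaches 83.1 TPM, and the curated mRNA (blue) holds 40.2% to 45.6% of each bar.

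*SMAD6* encodes an inhibitory SMAD that acts mainly on the BMP branch. It had 8.74, 10.5 and 5.47 TPM in SF, against 24.9, 16.6 and 16.3 TPM in PF replicates 1 to 3 and 10.7 TPM in PF replicate 4. All SF libraries were below all 4 PF libraries, though SF replicate 2 and PF replicate 4 were close. The log2 fold change was -1.10 ± 0.35 (95% interval -1.79 to -0.42), a 2.15-fold lower level in SF (DESeq2 adjusted p = 0.014). The call was lost without PF replicate 1 (-0.99, DESeq2 adjusted p = 0.090), when PF replicate 4 was kept (-1.004, DESeq2 adjusted p = 0.056) and under edgeR (adjusted p = 0.11) and limma (adjusted p = 0.11 to 0.15), and the range over all alternatives was 0.015 to 0.15. Its curated transcript held 76.4% to 87.6% of the *SMAD6* TPM in these 6 libraries and 68.5% in PF replicate 4.

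*SMAD7*, the inhibitor of both branches, was barely detected in the libraries compared. It received 2, 13 and 119 estimated counts in SF, against 1, 0 and 19 in PF replicates 1 to 3. In TPM these were 0.0446, 0.475 and 3.02 in SF and 0.0259, 0 and 0.491 in PF, while 3 counts, the limit that a count of 0 allows, correspond to 0.0669 to 0.0858 TPM per library. Only SF replicate 3 passed 1 TPM among these 6. The fitted log2 fold change of 2.79 ± 2.07 did not pass (DESeq2 adjusted p = 0.37), and a stage difference was not detectable at this depth. Without PF replicate 3 *SMAD7* did pass (6.85, DESeq2 adjusted p = 0.026), with 1 and 0 counts left in PF, so this value is no measure of the size of a change. PF replicate 4 differed from all the others, with 975 counts and 27.1 TPM, of which a predicted mRNA of 2778 bases held 83.6%.

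*SMAD2* and *SMAD3* transmit activin, TGF-beta and GDF9 signals. *SMAD2* had 165, 211 and 202 TPM in SF, against 177, 117 and 123 TPM in PF replicates 1 to 3 and 76.7 TPM in PF replicate 4. The stages overlapped, since PF replicate 1 exceeded SF replicate 1. In counts the log2 fold change was 0.79 ± 0.29 (95% interval 0.22 to 1.35, DESeq2 adjusted p = 0.037). The call was lost under edgeR (adjusted p = 0.11) and limma (adjusted p = 0.27 to 0.28), with a transcript length offset (DESeq2 adjusted p = 0.11) and with curated transcripts alone (0.54, DESeq2 adjusted p = 0.19), and the range over all alternatives was 0.0092 to 0.28. Leaving out a library also ended it for PF replicates 1, 2 and 3 (DESeq2 adjusted p = 0.085, 0.19 and 0.055) and for SF replicates 2 and 3 (DESeq2 adjusted p = 0.17 and 0.080).

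The count-based fold of *SMAD2* (1.72) was larger than the ratio of its mean TPM (1.39). Its 3 predicted transcripts of 9704 to 10006 bases, which give many counts per TPM, took 28.8%, 40.5% and 35.2% of the *SMAD2* counts in SF, against 19.7%, 25.4% and 24.5% in PF replicates 1 to 3 and 44.0% in PF replicate 4. All SF shares were above those of PF replicates 1 to 3, and the highest share was that of PF replicate 4. The transcript of 9704 bases received 0, 2345 and 2256 counts in SF and 0, 204 and 727 in PF replicates 1 to 3, and since Salmon divides reads that fit several transcripts, their split is uncertain.

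*SMAD3* had 20.3, 40.2 and 49.5 TPM in SF, against 42.0, 42.3 and 26.9 TPM in PF replicates 1 to 3 and 24.0 TPM in PF replicate 4. SF replicate 1 was the lowest of these 7 libraries and SF replicate 3 the highest. The log2 fold change was 0.13 ± 0.46 (95% interval -0.77 to 1.04, DESeq2 adjusted p = 0.88), so changes of either sign remain within the interval.

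*SMAD1* and *SMAD5* transmit BMP signals and, in granulosa cells, those of BMP15 and AMH. *SMAD1* had 3.14, 6.60 and 5.36 TPM in SF, against 16.4, 7.14 and 5.31 TPM in PF replicates 1 to 3 and 7.94 TPM in PF replicate 4. *SMAD5* had 11.7, 15.2 and 9.47 TPM in SF, against 27.2, 8.76 and 8.73 TPM in PF replicates 1 to 3 and 14.3 TPM in PF replicate 4. For both genes PF replicate 1 was the highest library and the other libraries of the stages overlapped. The log2 fold changes were -0.75 ± 0.56 for *SMAD1* (95% interval -1.85 to 0.35, DESeq2 adjusted p = 0.37) and -0.15 ± 0.49 for *SMAD5* (-1.11 to 0.82, DESeq2 adjusted p = 0.88). Without PF replicate 1 the estimates were -0.26 for *SMAD1* and 0.45 for *SMAD5* (DESeq2 adjusted p = 0.82 and 0.40), and with curated transcripts alone that of *SMAD1* was -1.45 (DESeq2 adjusted p = 0.21).

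To compare the classes, TPM were summed within each class and library, as a description with no test. The activin-type SMADs reached 185, 252 and 252 TPM in SF and 219, 159 and 150.01 TPM in PF, and the BMP-type SMADs 14.8, 21.8 and 14.8 TPM in SF and 43.6, 15.9 and 14.04 TPM in PF. Activin-type transcripts thus exceeded those of *SMAD1* and *SMAD5* in every library. The ratio was 12.5, 11.6 and 17.0 in SF, 5.01, 10.002 and 10.7 in PF and 4.53 in PF replicate 4. *SMAD9*, listed among the SMAD partners and regulators below, was left out of these sums, and counting it as BMP-type would lower each ratio. It had 1.17, 2.21 and 3.64 TPM in SF. In PF replicates 1 to 3 it had 19.7, 5.999 and 2.52 TPM, and 16.2 TPM in PF replicate 4. It did not pass between the stages (-1.70 ± 0.81, DESeq2 adjusted p = 0.13). The mean log2 difference of SF minus PF (with the pooled SD of the libraries) was 1.21 (0.27) for the common and -1.03 (0.27) for the inhibitory class. It was 0.39 (0.27) for the activin-type class. For the BMP-type class it was -0.34 (0.67), and 0.17 without PF replicate 1. For the ID class it was 1.21 (1.29), within the spread between libraries, and it was -0.068 within library numbers above 40 (described below) and 0.51 to 2.09 without each library.

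Ratios within a library do not depend on its depth. In SF and PF replicates 1 to 3 most of the inhibitory sum was *SMAD6*, and most of the receptor-regulated sum, which also left out *SMAD9*, was *SMAD2*. The ratios therefore restate the values of single genes given above and are not separate results. Inhibitory SMADs were 0.0440, 0.0401 and 0.0318 of the receptor-regulated SMADs in SF (0.0386 ± 0.0062, SD, n = 3), against 0.0949, 0.0950 and 0.102 in PF (0.0974 ± 0.0042). The stages did not overlap in this ratio, the PF values lay close together, and PF replicate 4 was at 0.307, with 27.1 of its 37.8 TPM of inhibitory SMADs from *SMAD7*. *SMAD4* was 0.374, 0.312 and 0.436 of the receptor-regulated SMADs in SF, against 0.175, 0.200 and 0.227 in PF and 0.676 in PF replicate 4. The ratio of *SMAD2* over *SMAD4* was 2.20, 2.48 and 1.74 in SF and 3.85, 3.33 and 3.31 in PF, while PF replicate 4, at 0.923, was the only library with more *SMAD4* than *SMAD2*. *SMAD6* over *SMAD5* was 0.749, 0.690 and 0.577 in SF and 0.914, 1.90 and 1.86 in PF, with PF replicate 4 (0.748) among the SF values.

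**Figure D4:**
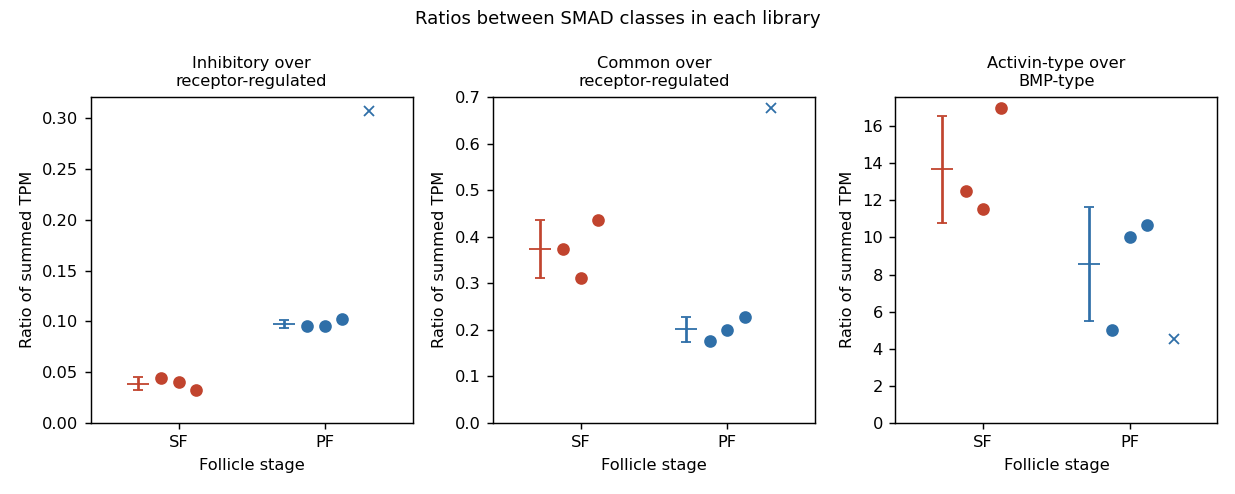
Ratios of summed TPM between SMAD classes (y axis) for SF and PF libraries (x axis). Circles are libraries, crosses PF replicate 4, and bars the mean ± SD over n = 3. The sums leave out *SMAD9*. The inhibitory share is lower in SF (0.0318 to 0.0440) than in PF (0.0949 to 0.102), the common share higher (0.312 to 0.436, against 0.175 to 0.227), and the activin-type over BMP-type ratio 11.6 to 17.0 in SF and 5.01 to 10.7 in PF.

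The ID genes did not separate by stage. *ID1* had 200.2, 519 and 869 TPM in SF, against 47.2, 105 and 777 TPM in PF replicates 1 to 3 and 349 TPM in PF replicate 4. *ID2* had 84.0, 628 and 1044 TPM in SF, against 35.6, 41.2 and 811 TPM in PF replicates 1 to 3 and 423 TPM in PF replicate 4. In both stages low and high libraries lay side by side. *ID3* varied less, with 498, 617 and 597 TPM in SF, against 166, 363 and 618 TPM in PF replicates 1 to 3 and 304 TPM in PF replicate 4. The log2 fold changes of SF over PF were 0.75 ± 1.00 for *ID1*, 0.94 ± 1.57 for *ID2* and 0.61 ± 0.57 for *ID3* (DESeq2 adjusted p = 0.66, 0.73 and 0.49). These values rested on few libraries. Without PF replicate 3 *ID1*, *ID2* and *ID3* were all called higher in SF (3.04, 4.19 and 1.32, DESeq2 adjusted p = 0.00042, 6.8e-05 and 0.023). Without SF replicate 3 *ID1* and *ID2* were at 0.066 and 0.072, without PF replicate 1 at 0.21 and 0.40, and without PF replicate 2 at 0.30 and 0.41, none of them called.

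The low and high libraries instead differed in the number that begins each library's name, whose meaning the labels do not state. It is 26, 48 and 49 for SF replicates 1 to 3 and 24, 34, 46 and 47 for PF replicates 1 to 4. *ID2* had 628 and 1044 TPM (SF) and 811 TPM (PF) in libraries numbered above 40, against 84.0 TPM (SF) and 35.6 and 41.2 TPM (PF) in those below 40. *ID1* had 519 to 869 TPM above 40 and 47.2 to 200.2 TPM below it. The groups did not overlap for these genes, and PF replicate 4, numbered 47, lay between them with 423 and 349 TPM, above every library numbered below 40. How large a share of all genes separated by number in this way was not computed.

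In the fit with stage and number together, chosen after the data were seen, 3 of the 10 members were higher above 40. The background was 580 of 19009 genes (3.05%) higher and 881 (4.63%) in either direction. These 19009 are all genes with a count, so genes with few counts lower this share. It is not alike to the stage background, which was taken over 15104 genes. Since the *ID1* and *ID2* levels of these same libraries were seen before the contrast was chosen, their p-values and calls describe that separation and do not test it. *ID2* had a log2 fold change of 4.05 ± 0.45 (DESeq2 adjusted p = 1.0e-16), or 16.5-fold, and kept the call without each library in turn. *ID1* had 2.76 ± 0.57 (6.76-fold, DESeq2 adjusted p = 7.6e-05), and lost the call without PF replicate 3 (1.87, DESeq2 adjusted p = 0.16), the only PF library above 40 in the fit. *SMAD7* also passed (DESeq2 adjusted p = 0.049), but its libraries below 40 held 0 to 2 counts, and its call did not survive the removal of any PF library (DESeq2 adjusted p = 0.075, 0.099 and 0.50) or of SF replicate 1 (DESeq2 adjusted p = 0.35), while no adjusted p was obtained without SF replicate 3. It held without SF replicate 2 (DESeq2 adjusted p = 0.040) and when PF replicate 4 was kept (DESeq2 adjusted p = 5.5e-05), the library with 975 counts. *ID3* did not pass (0.92 ± 0.46, DESeq2 adjusted p = 0.35), nor did the other 6 members.

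Within this fit the stage estimates of the ID genes were 0.68 for *ID1*, 0.65 for *ID2* and 0.49 for *ID3* (DESeq2 adjusted p = 0.48, 0.35 and 0.55). Below 40, the SF library had 2.63, 2.19 and 1.88 times the mean of the PF libraries for *ID1*, *ID2* and *ID3*, and above 40 the mean of the SF libraries was 0.893, 1.03 and 0.982 times the PF library. The stage ratios of *SMAD4* were 1.85 below 40 and 2.71 above it, and those of *SMAD6* 0.421 and 0.490, so both genes kept their direction in each set. *SMAD3* did not, with 0.481 below 40 and 1.67 above it, nor did *SMAD1* (0.266 and 1.13) and *SMAD5* (0.649 and 1.41). The ID genes also differed among themselves, since *ID3* over *ID2* was 0.982 and 0.572 (SF) and 0.762 (PF) above 40 and 5.93 (SF) and 4.65 and 8.81 (PF) below it.

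The summed level of the immediate early genes, which cells transcribe within minutes of a stimulus, also separated by library number. The 14 genes of this list, among them *FOS*, *JUN* and *EGR1*, summed to 32797 and 36057 TPM (SF) and 19210 TPM (PF) above 40, against 11091 TPM (SF) and 2489 and 4038 TPM (PF) below it, and to 14927 TPM in PF replicate 4. Of the 14 genes, 11 were higher in each library above 40 than in each below it, and 3 (*NR4A1*, *DUSP1* and *BTG2*) were not. The share of all genes that separated in this way was not computed, so the count has no background to be set against. None of them was at 0 in any library. Their part in the ID values was not tested.

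**Figure D5:**
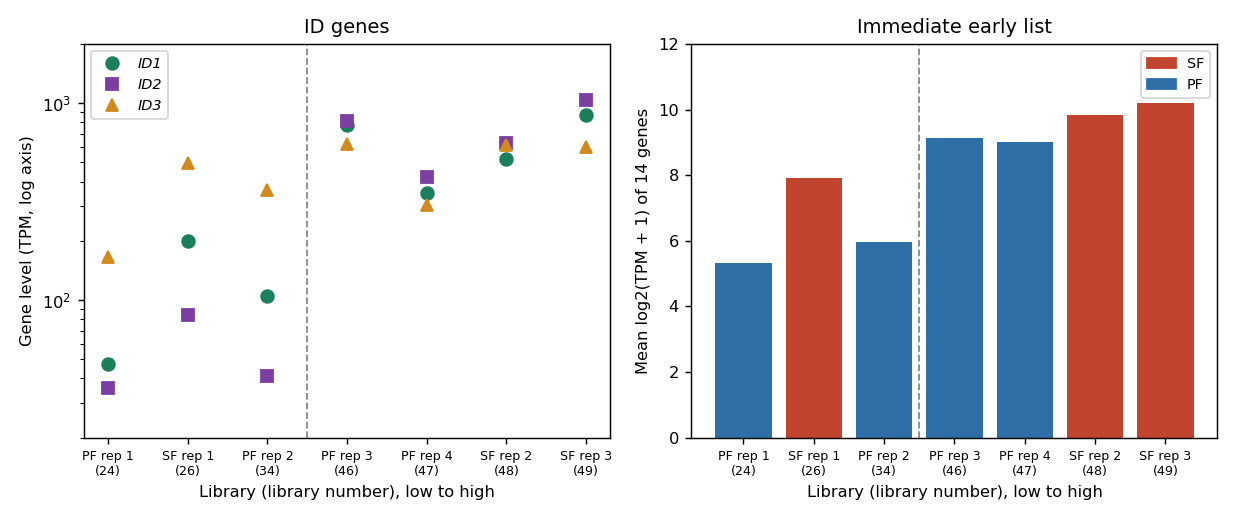
Left, *ID1*, *ID2* and *ID3* (y axis, TPM on a log scale) in each library, ordered along the x axis by library number. Right, mean log2(TPM + 1) of 14 immediate early genes (y axis) in the same order, SF in red and PF in blue, with a dashed line at 40. *ID1* and *ID2* reach 349 to 1044 TPM in the 4 libraries right of the line and 35.6 to 200.2 TPM in the 3 libraries left of it.

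The wider pathway was examined in 57 further genes, of which 53 received an adjusted p. Of these, 6 were higher and 4 lower in SF, or 18.9%, against 19.0% of all genes, and the median log2 fold change was 0.30. Among the receptors and co-receptors, 4 of 13 rose and none fell. They were the co-receptors *TGFBR3* (betaglycan, 15.9 ± 2.99 TPM in SF and 4.87 ± 1.79 TPM in PF, 1.84 ± 0.42) and *ENG* (endoglin, 8.75 ± 3.83 and 1.80 ± 0.65 TPM, 2.37 ± 0.57), with DESeq2 adjusted p = 0.00039 and 0.00078. The others were *AMHR2*, the AMH receptor (67.3 ± 15.7 TPM in SF and 27.7 ± 13.1 TPM in PF, 1.39 ± 0.46), and *BMPR1B*, a type I BMP receptor (32.4 ± 3.06 and 15.2 ± 7.04 TPM, 1.36 ± 0.45), with DESeq2 adjusted p = 0.021 and 0.019. *AMHR2* is also on the granulosa list. *ENG*, which endothelium also expresses, had 12.6, 8.74 and 4.93 TPM in SF. There the 8 endothelial markers summed to 102, 45.4 and 21.0 TPM, most of it *CLDN5* (91.7, 37.9 and 19.2 TPM). *VWF* had 1.47, 4.36 and 1.09 TPM, *TEK* 3.59, 1.78 and 0.593 TPM, and *EMCN* 3.40, 0.253 and 0 TPM. *TIE1* reached at most 1.06 TPM in SF, and *PECAM1*, *CDH5* and *KDR* were under 1 TPM there. In PF replicates 1 to 3 *ENG* had only 1.27 to 2.53 TPM. The endothelial markers summed to 48.8, 45.2 and 34.7 TPM in these PF libraries, within the SF range. *CLDN5* had 38.3, 28.9 and 17.9 TPM in them, *VWF* 1.49, 5.69 and 10.2 TPM, and *TEK* 4.79, 9.79 and 4.67 TPM. The endothelial sums thus did not separate by stage as *ENG* did. The part of these markers in the *ENG* values was not tested. The calls of *TGFBR3* and *ENG* held in all 6 fits without a library, those of *AMHR2* and *BMPR1B* in 4 and 3 of them, and all of them held with PF replicate 4 kept.

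Among 26 SMAD partners and regulators, 2 rose and 2 fell. The genes that fell were both ubiquitin ligases that act on SMADs and receptors. *SMURF1* had 7.81, 12.4 and 5.32 TPM in SF, against 46.6, 44.2 and 21.4 TPM in PF replicates 1 to 3 and 9.56 TPM in PF replicate 4 (-2.02 ± 0.41, DESeq2 adjusted p = 4.7e-05). *NEDD4L* had 17.4, 27.5 and 7.62 TPM in SF, against 99.4, 73.7 and 49.0 TPM in PF replicates 1 to 3 and 12.8 TPM in PF replicate 4 (-2.02 ± 0.48, DESeq2 adjusted p = 0.00066). Both were lower in every SF library than in PF replicates 1 to 3, while PF replicate 4 lay within the SF range, and with it kept *NEDD4L* no longer passed (DESeq2 adjusted p = 0.11).

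The partners that rose were the corepressor *TGIF1*, the smallest rise of the 6 and named after its values were seen (204 ± 12.8 TPM in SF and 119 ± 3.83 TPM in PF, 0.85 ± 0.26, DESeq2 adjusted p = 0.0089) and the coactivator *EP300* (12.8 ± 1.99 and 6.10 ± 1.87 TPM, 1.18 ± 0.40, DESeq2 adjusted p = 0.024). Neither passed in the fit of all 7 libraries (DESeq2 adjusted p = 0.064 and 0.32), and they held in 3 and 2 of the 6 fits without a library. *ID4* and the E proteins, the partners that ID proteins bind, gave 0 calls among 4 genes. Of 10 further targets none rose and 2 fell, the homeobox gene *MSX1* (42.5 ± 12.5 TPM in SF and 132 ± 26.0 TPM in PF, -1.51 ± 0.35, DESeq2 adjusted p = 0.00046) and the matrix gene *TGFBI* (3.01 ± 0.55 and 10.7 ± 6.53 TPM, -1.67 ± 0.52, DESeq2 adjusted p = 0.012). *MSX1* did not pass in the fit of all 7 libraries (DESeq2 adjusted p = 0.25) but held in all 6 fits without a library (DESeq2 adjusted p up to 0.0115). *TGFBI* passed in the fit of all 7 libraries (DESeq2 adjusted p = 0.0114) and held in 3 of the 6 fits without a library (DESeq2 adjusted p up to 0.069).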

How the data were processed

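RNA sequencing of 7 libraries, 3 of SF and 4 of PF, was analysed, with groups and replicate numbers from the sample titles. Per the labels, cDNA was made with a SMART-Seq kit. Such kits do not mark strand, so a gene and an overlapping antisense gene cannot be told apart. Trim Galore and Salmon are named in the submitters' notes on processing, and per the study Salmon quantified the trimmed reads against the transcriptome of ARS-UCD1.3. Per the file headers, the authors deposited for each RefSeq transcript an estimated count, a TPM and an effective length. Of 76123 transcripts, 50205 (66.0%) were matched by accession to 23704 genes of a RefSeq table of ARS-UCD2.0, used for names alone. Unmatched transcripts held 9.71% to 10.7% of the counts. A count of 0 allows up to 3 counts, and counts of amplified reads without molecular identifiers cover counting error only.

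Gene values are sums of the estimated counts over transcripts, rounded to whole numbers. PF replicate 4 was not tested, following the study, and SF was compared with PF in DESeq2 1.42.0 under R 4.3.3 (Wald test, median-of-ratios size factors, independent filtering, Benjamini-Hochberg adjusted p below 0.05). An adjusted p was obtained for 15104 of the 19009 genes with a count. Fold changes are given ± SE. TPM are given as mean ± SD. Alternatives were edgeR 4.0.16, limma 3.58.1 on log2(TPM + 1) or log2(TPM + 0.1) for genes with 1 TPM in 3 libraries or without that filter, TMM factors, a transcript length offset, a filter of 10 counts in 3 libraries, PF replicate 4 kept, a replicate block, the library number (above or below 40) as a covariate, curated transcripts alone and fits without each library. The contrast of library numbers was added after the data were seen. The members and lists were chosen with earlier results of these data known. Named genes were all members and, from the pathway lists, the genes called with a mean of at least 1 TPM, at most 5 in each direction, with *TGIF1* added after its values were seen. Marker lists also covered theca, endothelial, smooth muscle, immune and erythroid cells. No libraries of a group were duplicates (chi-square of at least 97.8 per degree of freedom). The sources used here do not tell which animals went into each pool, and p-values cover only the variation among these libraries, part of which may be technical. Plots were drawn with matplotlib 3.10.9.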

Additional observations from a re-analysis of the deposited data

Results flagged for a closer look

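PF replicate 4 stood apart from the other PF libraries in 7 of 49 values, which were member levels, class sums, ratios, marker sums and called pathway genes, by the gap to the next PF library relative to the range of the group (Dixon's test for 4 libraries). For normally distributed values chance alone sets about 1 in 20 groups apart. That rate need not hold here, since these values are not independent of each other. The pathway genes among them were also called in a fit without PF replicate 4. *SMAD7* had 27.1 TPM there, against 0.0259, 0 and 0.491 TPM in PF replicates 1 to 3. The inhibitory SMADs were 0.307 of the receptor-regulated SMADs, against 0.0949 to 0.102 in PF replicates 1 to 3, and the common SMAD 0.676 of them, against 0.175 to 0.227. *TGIF1* had 54.6 TPM, against 116 to 124 TPM. The stromal fibroblast markers summed to 6246 TPM, against 467 to 1219 TPM, the theca markers to 1515 TPM, against 166 to 252 TPM, and the smooth muscle and pericyte markers to 1044 TPM, against 72.4 to 152 TPM. Not every marker of these lists was raised there. *DCN* had 168 TPM, against 390 to 573 TPM, and *MYH11* 28.5 TPM, against 48.1 to 86.0 TPM. *CYP17A1* was at 0 there and in PF replicates 2 and 3. The part of these cell markers in the other values was not tested.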

How the results depend on the processing

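With 3 libraries per stage the calls depended on the test. The members called higher in SF (2) numbered 0 under edgeR and the 3 limma fits, 1 with the length offset, with PF replicate 4 kept or with curated transcripts, 4 with the replicate block and 1 to 5 without each library in turn. The member called lower (1) was lost under edgeR, the 3 limma fits and with PF replicate 4 kept (0 each), and 0 to 1 were called without each library. Pathway genes called higher (6) numbered 0 under edgeR and limma, 14 with the replicate block and 2 to 12 without each library, and those called lower (4) 0 under edgeR, limma on log2(TPM + 0.1) and limma without a filter, 2 with PF replicate 4 kept and 3 to 6 without each library. Over all genes, 1225 were higher and 1646 lower, against 0 and 0 under edgeR, 233 and 559 under limma on log2(TPM + 1), 0 and 2 with the smaller pseudocount, 0 and 0 without its filter, 386 and 469 with PF replicate 4 kept, 693 and 958 with curated transcripts, 1927 higher with the replicate block, and 697 to 2016 higher and 927 to 1929 lower without each library.

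Estimates near 0 changed sign. *SMAD5* was 0.0060 with the replicate block and -0.44 to 0.45 without each library. *SMAD3* was -0.076 under limma on log2(TPM + 1), with or without the filter, -0.080 with the smaller pseudocount, -0.10 with the library number as covariate and -0.22 to 0.43 without each library. For library numbers above over below 40, the ranges without each library were -0.81 to 0.99 for *SMAD1*, -0.69 to 0.15 for *SMAD5*, -0.31 to 1.21 for *SMAD3* and -0.25 to 0.011 for *SMAD6*, and 1 to 3 members were called. Of the class differences, BMP-type was 0.36 within numbers above 40 and -0.64 to 0.17 without each library, ID -0.068 above 40 and 0.51 to 2.09 without each library, activin-type 0.69 with scaled counts, 0.75 above 40 and -0.011 below it, common 0.90 below 40, and inhibitory -1.31 with curated transcripts. The causes were not tested.

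The replicate block is of limited use, since same-numbered SF and PF libraries deviated together with correlations of 0.26, -0.04 and 0.40 over 13150 genes, and SF replicate 1 correlated best with PF replicate 2 (0.27). With it *ID1* and *ID2* were called higher in SF (1.66 and 1.90, DESeq2 adjusted p = 0.0030 and 0.0065), and *SMAD2*, *SMAD4* and *SMAD6* kept their calls. In the stage comparison *SMAD7* received no adjusted p with PF replicate 4 kept, without SF replicate 3 or with curated transcripts, and its estimates there are not given. The filter of the limma fits left it out. Its counts limit any statement on it.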

Other observations

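Several pathway genes chosen after their values were seen stood out in PF replicate 4. *PMEPA1*, a TGF-beta target that inhibits SMAD signaling, had 303 TPM there, against 2.03 to 19.1 TPM in SF and 4.98 to 10.5 TPM in PF replicates 1 to 3. The type II TGF-beta receptor *TGFBR2* had 25.6 TPM in that library, against 0.241 to 1.72 TPM in SF and 0.685 to 4.02 TPM in PF replicates 1 to 3. The target *CCN2* had 876 TPM in PF replicate 4, against at most 557 TPM in SF and 66.8 TPM in the other PF libraries. *CCN2* also separated by library number. It had 170 and 557 TPM (SF) and 66.8 TPM (PF replicate 3) above 40, against 7.71 TPM (SF) and 6.52 and 23.9 TPM (PF) below it.

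Other genes chosen in the same way followed the library number. *JUNB*, an AP-1 factor and TGF-beta family target, had 5344 and 4330 TPM (SF) and 3106 TPM (PF) above 40, against 1538 TPM (SF) and 57.4 and 108 TPM (PF) below it. *SKIL*, a corepressor of SMADs, had 50.03 and 125 TPM (SF) and 12.5 TPM (PF) above 40, against 6.77 TPM (SF) and 0 TPM (both PF libraries) below it. *ID4* had 18.3 and 22.6 TPM (SF) and 27.6 TPM (PF) above 40, against 5.35 TPM (SF) and at most 9.13 TPM (PF) below it. No test was made of these values.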
